A study of Mus musculus with 10 samples.

Results

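The genes described are 46 chosen by name as markers of the dividing cell, 23 of DNA replication (S phase, Mcm2 to Fen1) and 23 of late division (G2 and mitosis, Mki67 to Cdkn3). Of these, 44 were measured among 18193 genes, 22 in each part. Chaf1a and Ccnb1 were not analysed here. Each gene was read from 1 Affymetrix probe set, the one of its probe sets with the highest mean log2 value over all samples. The samples were 10 preparations of a mouse acute lymphoblastic leukaemia (NSTY ALL, of C57BL/6 background, with the human p210 bcr/abl fusion gene and a deletion in the Ink4a/Arf locus, in every sample). In the allogeneic group (5 animals) the leukaemia grew in C57BL/6 recipients given C3.SW marrow and spleen cells. In the syngeneic group (5 animals) the recipients were given C57BL/6 marrow and spleen cells. All recipients had total body irradiation and 5-fluoruracil, the leukaemia was recovered by flow cytometry after 2 to 3 weeks and moved on to newly transplanted animals, and RNA came from cells sorted on GFP after 3 serial transplants. The animals' ages are not given in the labels. The labels do not say if leukaemia in several animals of a group came out of one earlier recipient. The p-values treat the 10 animals as independent and apply only to them. They could be too small if animals of a group shared an earlier recipient.

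A dividing cell first copies its DNA and then separates the copies. In S phase the MCM helicase opens the double helix, primase and polymerases copy it around the sliding clamp PCNA, and ribonucleotide reductase and thymidylate synthase supply the nucleotides. In G2 and mitosis, cyclin-dependent kinases, Aurora kinases and PLK1 drive spindle assembly, kinetochores attach chromosomes to the spindle, and the anaphase-promoting complex ends the phase. Transcripts of both sets rise and fall with the cycle, those of S phase largely under E2F factors and those of mitosis under the DREAM and MYBL2-FOXM1 complexes, which act through the CHR element and neighbouring CCAAT boxes. In a leukaemia that lacks the Ink4a/Arf inhibitors, such transcripts are read as a measure of how much of the population is cycling. In sorted bulk samples, fewer cycling cells and less transcript per cycling cell cannot be told apart.

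Most, but not all, of the member promoters that could be matched carried elements this background names, and the elements differed between the parts. Tyms, Ung, Birc5 and Nusap1 had no match to any of them. RefSeq promoter windows (GRCm38.p6, 250 bases before to 50 after the start of the gene) were matched for 37 of the 44 members, 19 of S phase and 18 of G2/M. The E2F core was searched on either strand in its common spelling TTCCCGC. Windows with the related spelling TTGGCGC were also counted, together with windows that held the related spelling TTCGCGC and those in which the remaining spelling TTGCCGC was present. Overlapping matches were counted separately. It was found in 1 of 18 G2/M windows (5.56%) and 13 of 19 S-phase windows (68.4%), against 9.69% of all 27025 windows. The CHR element was searched on either strand in its usual spelling TTTGAA and also in the related spelling with other central letters, TTCGAA. It was in 15 of 18 G2/M windows (83.3%) and 3 of 19 S-phase windows (15.8%), against 19.4% of all windows. CCAAT on either strand was in 16 of 18 G2/M windows (88.9%), 12 of 19 S-phase windows (63.2%) and 37.9% of all windows. These are descriptions of letters in a fixed window, and no match says only that the letters are not there.

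The windows shown are those of the 4 G2/M members with the lowest p-values between the groups and, from S phase, Mcm6 (lowest p) and Pola1 (most negative difference). Each is written 5′ to 3′ on the strand of its gene, with matches to the E2F core, CHR or CCAAT in capitals. Mki67 lies at chr7:135716330-135716629 (minus strand), Cenpf at chr1:189688037-189688336 (minus), Kif11 at chr19:37376132-37376431 (plus), Cenpe at chr3:135212313-135212612 (plus), Mcm6 at chr1:128359656-128359955 (minus) and Pola1 at chrX:93632106-93632405 (minus).
Mki67: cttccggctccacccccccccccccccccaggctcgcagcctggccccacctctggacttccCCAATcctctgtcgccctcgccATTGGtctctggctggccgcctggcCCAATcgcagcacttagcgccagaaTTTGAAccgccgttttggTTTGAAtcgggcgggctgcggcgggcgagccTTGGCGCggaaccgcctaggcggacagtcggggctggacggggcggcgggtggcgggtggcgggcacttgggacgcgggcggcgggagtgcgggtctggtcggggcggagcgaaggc
Cenpf: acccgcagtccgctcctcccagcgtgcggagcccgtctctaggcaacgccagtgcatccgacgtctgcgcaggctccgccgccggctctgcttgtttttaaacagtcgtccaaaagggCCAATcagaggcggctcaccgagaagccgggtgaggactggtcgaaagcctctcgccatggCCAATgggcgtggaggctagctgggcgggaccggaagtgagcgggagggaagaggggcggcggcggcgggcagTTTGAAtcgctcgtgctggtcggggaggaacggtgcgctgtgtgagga
Kif11: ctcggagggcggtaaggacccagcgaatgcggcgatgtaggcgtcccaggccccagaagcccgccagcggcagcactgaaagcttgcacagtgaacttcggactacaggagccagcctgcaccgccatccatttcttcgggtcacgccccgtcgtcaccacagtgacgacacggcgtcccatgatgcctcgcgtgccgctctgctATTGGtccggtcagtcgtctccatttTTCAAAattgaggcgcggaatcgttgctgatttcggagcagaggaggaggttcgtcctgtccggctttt
Cenpe: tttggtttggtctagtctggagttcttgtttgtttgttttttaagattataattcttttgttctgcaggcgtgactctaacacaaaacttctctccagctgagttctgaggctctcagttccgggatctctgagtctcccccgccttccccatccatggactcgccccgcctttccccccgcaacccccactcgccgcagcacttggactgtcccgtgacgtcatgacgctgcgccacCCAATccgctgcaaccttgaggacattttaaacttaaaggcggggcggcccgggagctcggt
Mcm6: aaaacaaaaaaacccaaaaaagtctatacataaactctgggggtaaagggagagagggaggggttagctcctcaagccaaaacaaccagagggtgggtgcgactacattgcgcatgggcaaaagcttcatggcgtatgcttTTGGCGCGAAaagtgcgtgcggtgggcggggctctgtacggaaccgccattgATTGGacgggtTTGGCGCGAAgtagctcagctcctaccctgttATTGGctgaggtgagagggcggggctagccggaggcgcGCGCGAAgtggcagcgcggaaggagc
Pola1: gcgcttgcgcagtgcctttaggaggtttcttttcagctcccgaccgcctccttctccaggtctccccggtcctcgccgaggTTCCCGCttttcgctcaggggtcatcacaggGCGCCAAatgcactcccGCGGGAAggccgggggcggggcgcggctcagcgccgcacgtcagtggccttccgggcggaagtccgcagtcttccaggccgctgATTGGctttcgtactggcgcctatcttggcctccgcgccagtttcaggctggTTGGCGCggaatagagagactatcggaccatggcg
In the Mki67 window 2 CHR matches and an E2F core lie downstream of 3 CCAAT matches. The CHR match of Cenpf begins at base 253 of its window and that of Kif11 at base 232, and Cenpe has a CCAAT match but no CHR match. The Mcm6 and Pola1 windows have no CHR match and hold 5 and 4 E2F core matches, of which some in Mcm6 overlap on opposite strands.

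All 44 measured genes exceeded the background limit on all 10 arrays, and between 11984 and 13094 genes did so per allogeneic array and 11224 to 12544 per syngeneic array. Precision is limited by how many arrays there are. Of 13 measured B-lymphoid progenitor markers, 12 were above background on every array. Pax5 was the exception. The lower quartile of intensity was 18.7 to 19.5 on allogeneic arrays 1, 3 and 4 and 13.8 to 14.4 on the other 7. The 3' to 5' ratio of Gapdh, a sign of RNA integrity, ran from 1.39 to 1.57 in allogeneic and 1.48 to 1.59 in syngeneic samples. Beside the members, 8 of 17 macrophage and monocyte markers were above background on every array. Their mean deviation from each gene's mean was -0.73 in allogeneic animal 1, 0.21 to 0.51 in the other allogeneic animals and -0.29 to 0.096 in syngeneic animals. NK cell markers stood at 0.014 to 0.56 in allogeneic and -0.51 to 0.13 in syngeneic animals, with 5 of 9 at background on every array. Granulocyte markers stood at -0.37 to 0.31 in allogeneic and -0.43 to 0.56 in syngeneic animals. Erythroid markers ran from -0.32 to 0.32 in allogeneic and -0.13 to 0.15 in syngeneic animals. For T cell markers the ranges were -0.23 to 0.31 in allogeneic and -0.16 to 0.17 in syngeneic animals. No marker in any of the 6 lists of cell types passed. The part of these markers in the members' values was not tested.

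The comparison asked whether leukaemia passed through an allogeneic immune environment differed in its cell cycle transcripts from leukaemia passed through a syngeneic one. By limma, 0 of 22 S-phase and 0 of 22 G2/M genes passed an adjusted p of 0.05, where 0.583% of all genes passed (106 of 18193). At an unadjusted p under 0.05 there were 0 S-phase genes and 4 G2/M genes, all 4 lower in allogeneic leukaemia (Cenpe, Cenpf, Kif11 and Mki67), against 16.9% of all genes in either direction, 9.47% higher and 7.40% lower. The median log2 difference was 0.034 over S-phase genes and -0.065 over G2/M genes, beside 0.011 over all genes. The S-phase median turned to -0.019 without quantile normalization and to -0.053 with arrays centred on their medians, where the G2/M median was -0.12 and -0.16. The G2/M median was nearer 0 at -0.014 without allogeneic animal 1, at -0.026 with array weights and at -0.027 without allogeneic animals 1, 3 and 4. Median size of the difference, regardless of sign, was 0.105 for S phase and 0.129 for G2/M, beside 0.198 over 10455 genes that exceeded background on all arrays. Those 10455 genes also varied more within groups than either part, with a median SD of 0.311 in allogeneic and 0.170 in syngeneic animals.

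**Figure D1:**
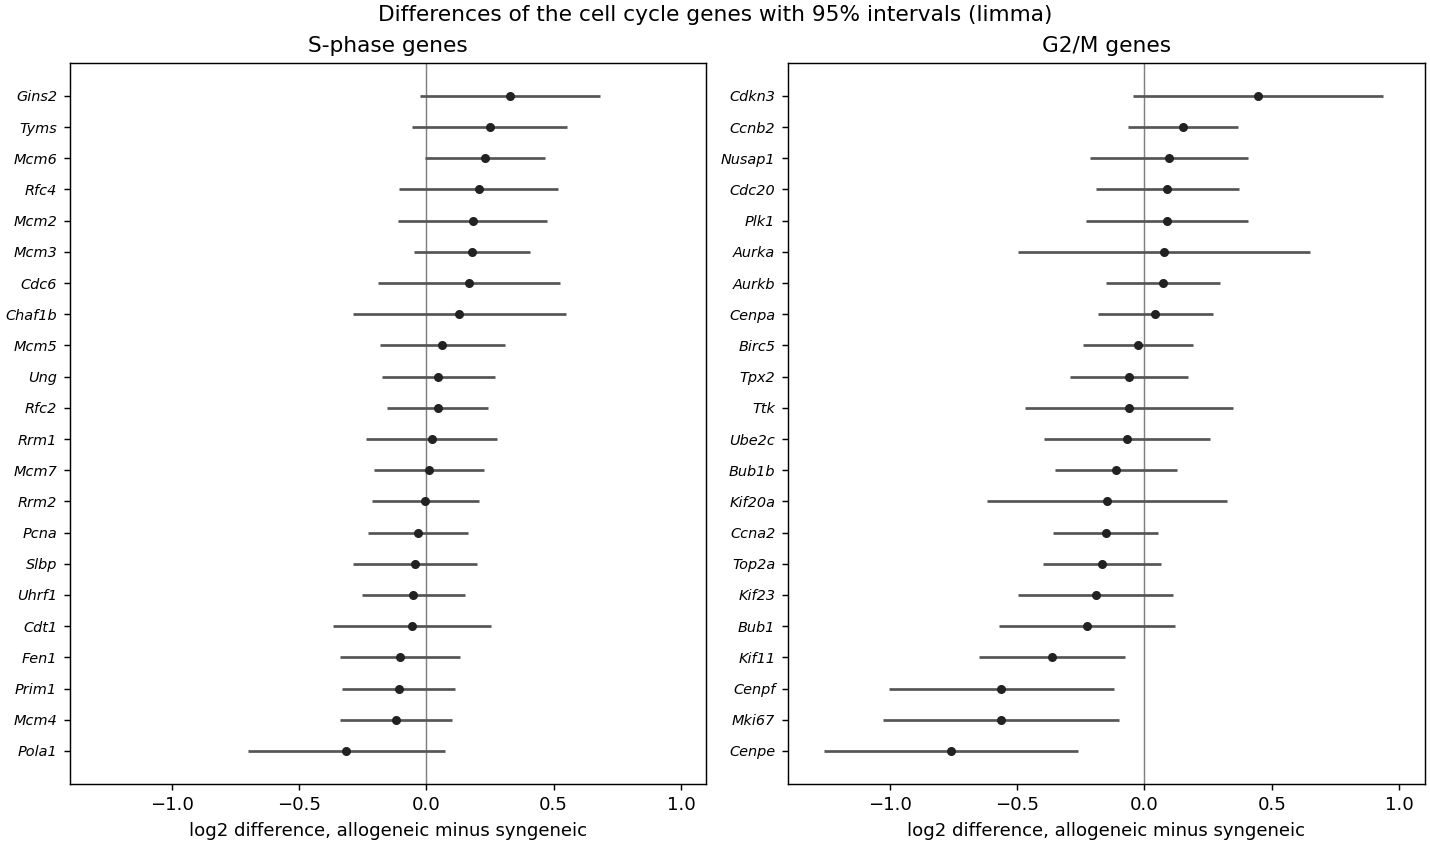
Log2 difference, allogeneic minus syngeneic, of each of the 44 genes (points) with its 95% interval from limma, not adjusted for the number of genes; S-phase genes on the left and G2/M genes on the right. All 22 S-phase intervals include 0, and the 4 G2/M intervals wholly below 0 are those of Kif11, Cenpf, Mki67 and Cenpe.

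Each sample was given a score, the mean over the genes of a part of the log2 value minus that gene's mean over the 10 samples. S-phase scores of allogeneic animals 1 to 5 were 0.000073, 0.047, 0.079, -0.050 and 0.042, and those of syngeneic animals 1 to 5 were -0.090, 0.031, 0.011, -0.053 and -0.015. The groups overlapped broadly, with 3 allogeneic animals above all syngeneic ones and allogeneic animal 4 at rank 8 of 10 from the highest. G2/M scores were -0.076, -0.0039, -0.011, -0.011 and -0.170 in allogeneic animals 1 to 5, against -0.060, 0.165, 0.080, 0.038 and 0.049 in syngeneic animals. All 5 allogeneic scores lay below 4 of the 5 syngeneic scores, and syngeneic animal 1 made the groups overlap. The S-phase score averaged 0.023 ± 0.050 in allogeneic and -0.023 ± 0.049 in syngeneic animals (SD, n = 5 each), a difference of 0.047, about the size of the spread. Its direction depended on the scaling, with -0.0020 without quantile normalization and -0.036 with arrays centred on their medians. The G2/M score averaged -0.054 ± 0.071 in allogeneic and 0.054 ± 0.081 in syngeneic animals (SD, n = 5 each), a difference of -0.109. It was -0.080 without allogeneic animal 5 and -0.081 without syngeneic animal 2, and -0.140 without quantile normalization and -0.175 with arrays centred on their medians. A score is a mean over genes, and most of this difference comes from 4 of the 22 genes. Cenpe (-0.76), Mki67 (-0.56), Cenpf (-0.56) and Kif11 (-0.36) had the most negative G2/M differences. The median over the 22 G2/M genes was -0.065, and 8 of them had a positive difference.

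A shift common to a whole array cancels when one score is taken from the other. The S-phase minus G2/M score was 0.076, 0.051, 0.090, -0.039 and 0.211 in allogeneic animals 1 to 5, and -0.030, -0.134, -0.069, -0.091 and -0.064 in syngeneic animals. In the allogeneic group 4 animals had a positive value and no syngeneic animal did. Allogeneic animal 4 fell within the syngeneic range. The means were 0.078 ± 0.090 in allogeneic and -0.078 ± 0.038 in syngeneic animals (SD, n = 5 each), a difference of 0.155 in log2 units, with a lowest value of 0.122 and a highest of 0.209 among the alternatives. Taking one score from the other was not among the planned results. The difference was described with no test, because the genes were chosen with earlier results known. Its G2/M part comes mostly from Cenpe, Mki67, Cenpf and Kif11, the G2/M genes with the most negative differences.

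**Figure D2:**
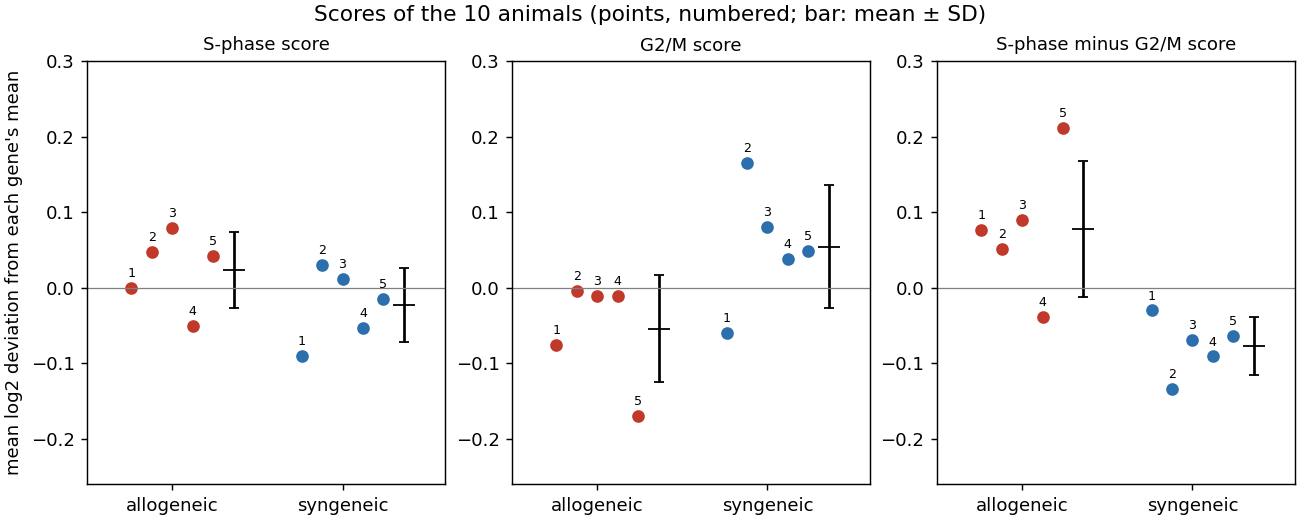
S-phase score, G2/M score and their difference (vertical axes, mean log2 deviation from each gene's mean) in the 5 allogeneic (left, red) and 5 syngeneic (right, blue) animals, numbered as in the labels, with mean ± SD as bars. S-phase scores overlap, while G2/M scores of allogeneic animals are -0.170 to -0.0039, with 4 syngeneic animals above them and syngeneic animal 1 at -0.060.

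Of the replication genes, the helicase group comprised Mcm2 to Mcm7, the 6 subunits of the replicative helicase, and Gins2, a subunit of the GINS complex that activates it. Their log2 differences ran from -0.12 for Mcm4 to 0.33 for Gins2, and none passed (adjusted p from 0.306 to 0.969 by limma). Mcm6 had log2 intensities of 12.69, 12.55, 12.48, 12.34 and 12.47 in allogeneic animals 1 to 5, against 12.25, 12.24, 12.45, 12.19 and 12.25 in syngeneic animals. Of the 5 allogeneic values, 4 exceeded every syngeneic value, and the difference was 0.23 (SE 0.11, limma adjusted p = 0.306). A second Mcm6 probe set above background differed by 0.10 (SE 0.12).

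Gins2 stood at 11.002, 11.38, 11.47, 11.45 and 11.46 in allogeneic animals, against 10.67, 11.24, 10.80, 11.22 and 11.20 in syngeneic animals. Allogeneic animal 1 was the low one of its group, the other 4 lay above all syngeneic animals, and the difference was 0.33 (SE 0.16, limma adjusted p = 0.327). A second probe set gave 0.39 (SE 0.21). Mcm3 had 11.91, 12.04, 11.92, 11.82 and 12.08 in allogeneic animals, and 11.67, 11.73, 11.87, 11.90 and 11.69 in syngeneic animals. It differed by 0.18 (SE 0.10, limma adjusted p = 0.404), and allogeneic animal 4 was the only one inside the syngeneic range. Mcm2 had 12.05, 11.94, 12.15, 11.57 and 11.96 in allogeneic animals, and 11.81, 11.66, 11.94, 11.61 and 11.73 in syngeneic animals. Allogeneic animal 4 was the lowest of all 10, and the difference was 0.18 (SE 0.13, limma adjusted p = 0.510). Mcm4, Mcm5 and Mcm7 differed by -0.12 (SE 0.10), 0.062 (SE 0.11) and 0.010 (SE 0.10), and Mcm5 and Mcm7 turned negative with arrays centred on their medians (-0.027 and -0.088).

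Among polymerases and clamp genes, Pola1, the catalytic subunit of the polymerase that lays the first DNA on each primer, had the most negative difference of the S-phase genes. Its values were 10.91, 10.37, 10.67, 10.46 and 10.20 in allogeneic animals, against 10.61, 10.92, 11.06, 11.07 and 10.51 in syngeneic animals. Allogeneic animals 2, 4 and 5 lay below all syngeneic ones, and the difference was -0.31 (SE 0.17, limma adjusted p = 0.392). Rfc4, a subunit of the clamp loader, had 11.37, 11.80, 11.81, 11.91 and 11.76 in allogeneic animals, against 11.30, 11.81, 11.48, 11.45 and 11.58 in syngeneic animals. Its groups overlapped and the difference was 0.21 (SE 0.14, limma adjusted p = 0.485), and that of Rfc2, another subunit of the loader, was 0.045 (SE 0.089). The other Rfc2 probe sets differed by 0.22 (SE 0.11) and 0.33 (SE 0.12), and the mean over its probe sets was 0.20 (limma adjusted p = 0.366). Pcna, the clamp itself, was nearly level, at 13.41, 13.52, 13.50, 13.52 and 13.47 in allogeneic animals and 13.48, 13.62, 13.50, 13.48 and 13.51 in syngeneic animals. Its difference was -0.034 with a 95% interval from -0.23 to 0.16 (limma adjusted p = 0.882). Prim1, the primase subunit that makes RNA primers, and Fen1, the nuclease that trims them, differed by -0.11 (SE 0.10) and -0.10 (SE 0.11).

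Of nucleotide supply genes, Rrm1 and Rrm2, the subunits of ribonucleotide reductase, differed by 0.022 (SE 0.12) and -0.0043 (SE 0.094). Tyms, thymidylate synthase, had 8.07, 8.58, 8.35, 8.30 and 8.07 in allogeneic animals, against 7.84, 8.12, 8.16, 7.85 and 8.16 in syngeneic animals. Its difference of 0.25 (SE 0.14, limma adjusted p = 0.390) rests on 1 of 4 probe sets, and the other 3 differed by -0.39, -0.37 and -1.52, so that the mean over probe sets was -0.51 (limma adjusted p = 0.311). The Tyms probe set at -1.52 was above background on only 6 arrays. Ung, which removes uracil from DNA, differed by 0.047 (SE 0.099). For helicase loading, Cdc6 differed by 0.17 (SE 0.16) and Cdt1 by -0.057 (SE 0.14). Behind the fork, Uhrf1, which recruits the maintenance methyltransferase, differed by -0.050 (SE 0.091), Chaf1b, a subunit of the chromatin assembly factor, by 0.13 (SE 0.19), and Slbp, which binds histone mRNA, by -0.045 (SE 0.11). A second Slbp probe set above background differed by -0.49 (SE 0.16), and the mean over all Slbp probe sets was -0.34 (limma adjusted p = 0.265). That mean takes in a further probe set, also at -0.49, which was above background on 0 arrays. Chaf1b was highest in allogeneic animal 5, at 10.39 against 9.43 to 9.93 in syngeneic animals and 9.49 to 9.86 in the other allogeneic ones.

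The most negative difference of all members was that of a centromere gene. Cenpe, a kinesin that carries chromosomes to the spindle equator, had 10.16, 9.73, 10.18, 9.67 and 8.99 in allogeneic animals, against 10.58, 10.64, 10.67, 10.22 and 10.41 in syngeneic animals. All 5 allogeneic values were below all 5 syngeneic values, closely so for animals 1 and 3, and animal 5 was the lowest. The difference was -0.76 (SE 0.22, 95% interval -1.26 to -0.26), or 0.591 times the syngeneic level, and did not pass (limma adjusted p = 0.152). Cenpe was the 1 member of 44 whose groups did not overlap, where 4.83% of all genes did not (2.94% higher and 1.90% lower). A second probe set of Cenpe differed by -0.31 (SE 0.24).

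Cenpf, a large kinetochore protein of G2 and mitosis, stood at 9.98, 9.42, 9.23, 8.9985 and 8.90 in allogeneic animals, against 9.90, 9.997, 9.96, 9.65 and 9.83 in syngeneic animals. Allogeneic animal 1 was at the syngeneic level and the other 4 were below every syngeneic animal. The difference was -0.56 (SE 0.20, limma adjusted p = 0.204), and without allogeneic animal 1 it was -0.73 and passed (limma adjusted p = 0.0289). With any other single animal left out it did not pass. The number of all genes passing also changed with the animal left out. The other probe sets of Cenpf differed by -0.46 (SE 0.27) and -0.043 (SE 0.16). Cenpa, the histone variant that marks the centromere, differed by 0.043 (SE 0.10), turning to -0.013 without quantile normalization.

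Mki67, which codes for the Ki-67 protein that coats mitotic chromosomes and is the usual stain for cycling cells, had 12.84, 12.04, 12.65, 12.07 and 11.75 in allogeneic animals. Syngeneic animals had 12.85, 13.04, 12.75, 12.76 and 12.77. Allogeneic animals 2, 4 and 5 lay well below, animal 3 just below and animal 1 within the syngeneic values, and the SD was 0.458 in the allogeneic and 0.122 in the syngeneic group. The difference was -0.56 (SE 0.21), or 0.677 times the syngeneic level (limma adjusted p = 0.220), and it rests on the single probe set of this gene. Top2a, the topoisomerase that untangles sister chromatids, had 13.07, 13.01, 13.18, 13.01 and 12.81 in allogeneic animals, against 13.07, 13.29, 13.21, 13.18 and 13.18 in syngeneic animals. It differed by -0.17 (SE 0.10, limma adjusted p = 0.444), with 3 allogeneic animals below the syngeneic range.

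**Figure D3:**
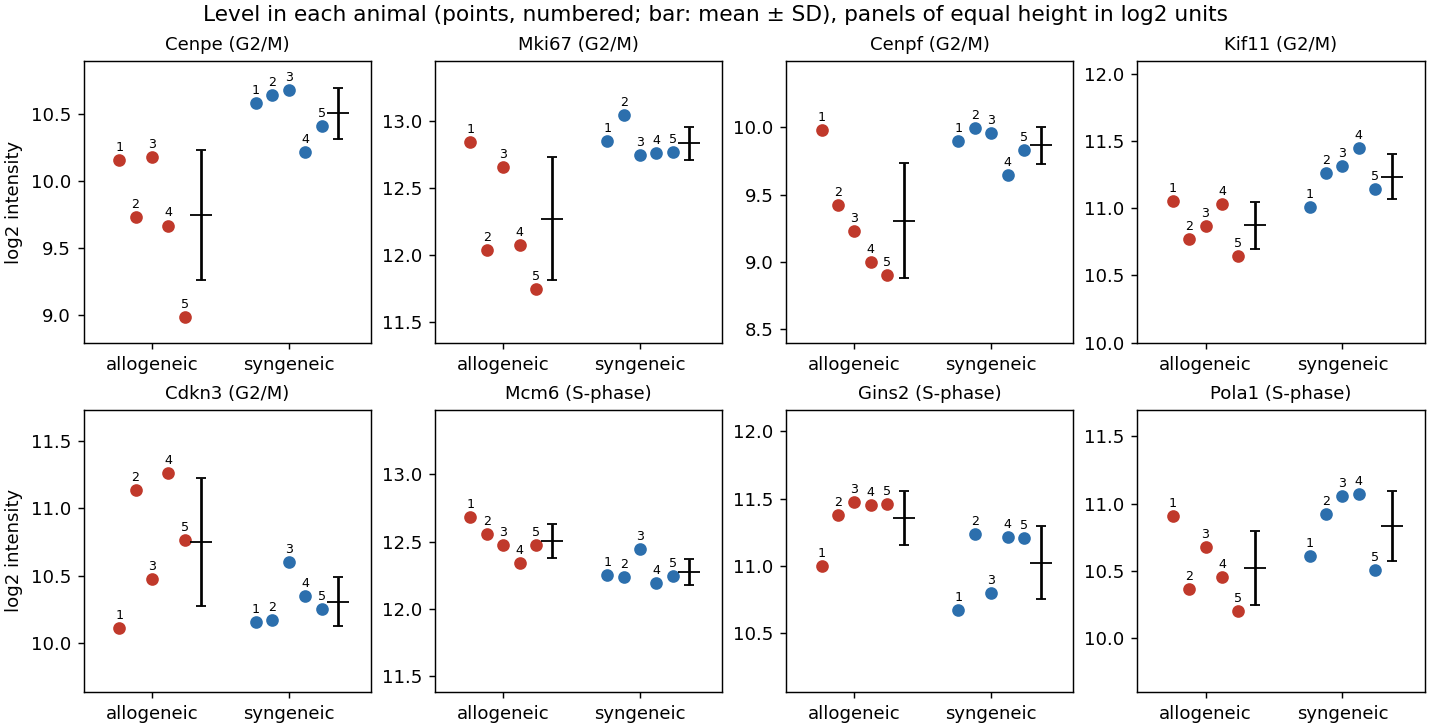
Log2 intensity of 5 G2/M and 3 S-phase genes in each animal, allogeneic on the left (red) and syngeneic on the right (blue), numbered as in the labels, with mean ± SD as bars; all panels span the same number of log2 units. Cenpe values do not overlap between groups, and Cenpf and Mki67 of allogeneic animal 1 (9.98 and 12.84) lie at the syngeneic level.

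Kif11, the kinesin that pushes spindle poles apart, had 11.05, 10.77, 10.87, 11.03 and 10.64 in allogeneic animals, against 11.01, 11.26, 11.32, 11.45 and 11.14 in syngeneic animals. Syngeneic animal 1, the lowest of its group, made the groups overlap. The difference was -0.36 (SE 0.13, limma adjusted p = 0.204), and the other probe sets of the gene differed by -0.11 (SE 0.15) and 0.094 (SE 0.20). The remaining spindle genes were closer to level. Kif23 and Kif20a, kinesins of cytokinesis, differed by -0.19 (SE 0.14) and -0.15 (SE 0.21), Nusap1, a microtubule bundling protein, by 0.098 (SE 0.14), and Tpx2, the activator of Aurora A, by -0.061 (SE 0.11).

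Mitotic kinases, cyclins and their partners showed no common direction. Cdkn3, a phosphatase of cyclin-dependent kinases, had the most positive difference of all 44 genes, with 10.11, 11.14, 10.48, 11.26 and 10.76 in allogeneic animals, against 10.15, 10.17, 10.60, 10.35 and 10.25 in syngeneic animals. Allogeneic animals 2, 4 and 5 were above all syngeneic animals, while animal 1 was the lowest of all 10, and the difference was 0.45 (SE 0.22, limma adjusted p = 0.339). Ccna2, the cyclin of S phase and G2, had 12.77, 12.60, 12.67, 12.59 and 12.53 in allogeneic animals, against 12.76, 12.79, 12.82, 12.82 and 12.73 in syngeneic animals. It differed by -0.15 (SE 0.093, limma adjusted p = 0.438), with allogeneic animal 1 alone inside the syngeneic range. Ccnb2, a mitotic B-type cyclin, differed by 0.15 (SE 0.096), Plk1 by 0.089 (SE 0.14), Aurka by 0.077 (SE 0.26), Aurkb by 0.073 (SE 0.10) and Birc5 (survivin, the partner of Aurora B) by -0.024 (SE 0.097). Signs of Aurka and Birc5 depended on which arrays were left out.

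The spindle checkpoint kinase genes Bub1 and Ttk and the related Bub1b differed by -0.23 (SE 0.15), -0.061 (SE 0.18) and -0.11 (SE 0.11). A second Ttk probe set differed by -0.99 (SE 0.37), and the mean over both was -0.52 (limma adjusted p = 0.368). Cdc20, the activator of the anaphase-promoting complex, differed by 0.090 (SE 0.13), and Ube2c, its ubiquitin-conjugating enzyme, by -0.068 (SE 0.15). Adjusted p-values by limma of the G2/M genes ran from 0.152 (Cenpe) to 0.931 (Birc5), and their 95% intervals reached from -1.26 (Cenpe) to 0.94 (Cdkn3). Among S-phase genes the intervals reached from -0.70 (Pola1) to 0.68 (Gins2).

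Allogeneic animals varied more than syngeneic animals. The SD was larger in the allogeneic group for 19 of 22 S-phase and 17 of 22 G2/M genes, where it was larger for 77.4% of all genes and 85.7% of those above background on every array. The median SD of a gene was 0.138 in allogeneic and 0.100 in syngeneic animals for S phase, and 0.193 in allogeneic and 0.139 in syngeneic animals for G2/M. For genes above background on every array it was 0.311 in allogeneic and 0.170 in syngeneic animals. Allogeneic animal 1 combined syngeneic-like Mki67 and Cenpf with the lowest Aurka (9.60), Kif20a (9.19), Ube2c (12.35) and Cdkn3 (10.11) of all 10 animals. Allogeneic animal 5 had the lowest Mki67, Cenpe, Cenpf, Kif11, Ttk (9.43) and Top2a of all 10. Animals 2 to 5, but not animal 1, were below every syngeneic animal for 3 G2/M genes (Mki67, Ccna2 and Cenpf) and for 0 S-phase genes, beside 5.53% of genes above background on all arrays. They were above every syngeneic animal for 1 S-phase gene (Gins2) and 0 G2/M genes, beside 5.29% of such genes. This picture was noticed after the values were seen.

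Counted by animal, 8, 9, 10, 6 and 10 of the 22 G2/M genes lay below all syngeneic values in allogeneic animals 1 to 5. Of the genes above background on every array, 34.1%, 25.1%, 28.7%, 31.9% and 27.3% did so in the same animals. The share of G2/M genes was thus above that background in animals 2, 3 and 5 and near it in animals 1 and 4. Above all syngeneic values lay 2, 5, 4, 5 and 6 G2/M genes, beside 21.6%, 37.3%, 29.9%, 31.8% and 39.9% of those genes. Of the 22 S-phase genes, 7, 6, 11, 4 and 9 lay above all syngeneic values and 3, 4, 1, 8 and 7 below them, so that allogeneic animal 4 had more below than above.

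**Figure D4:**
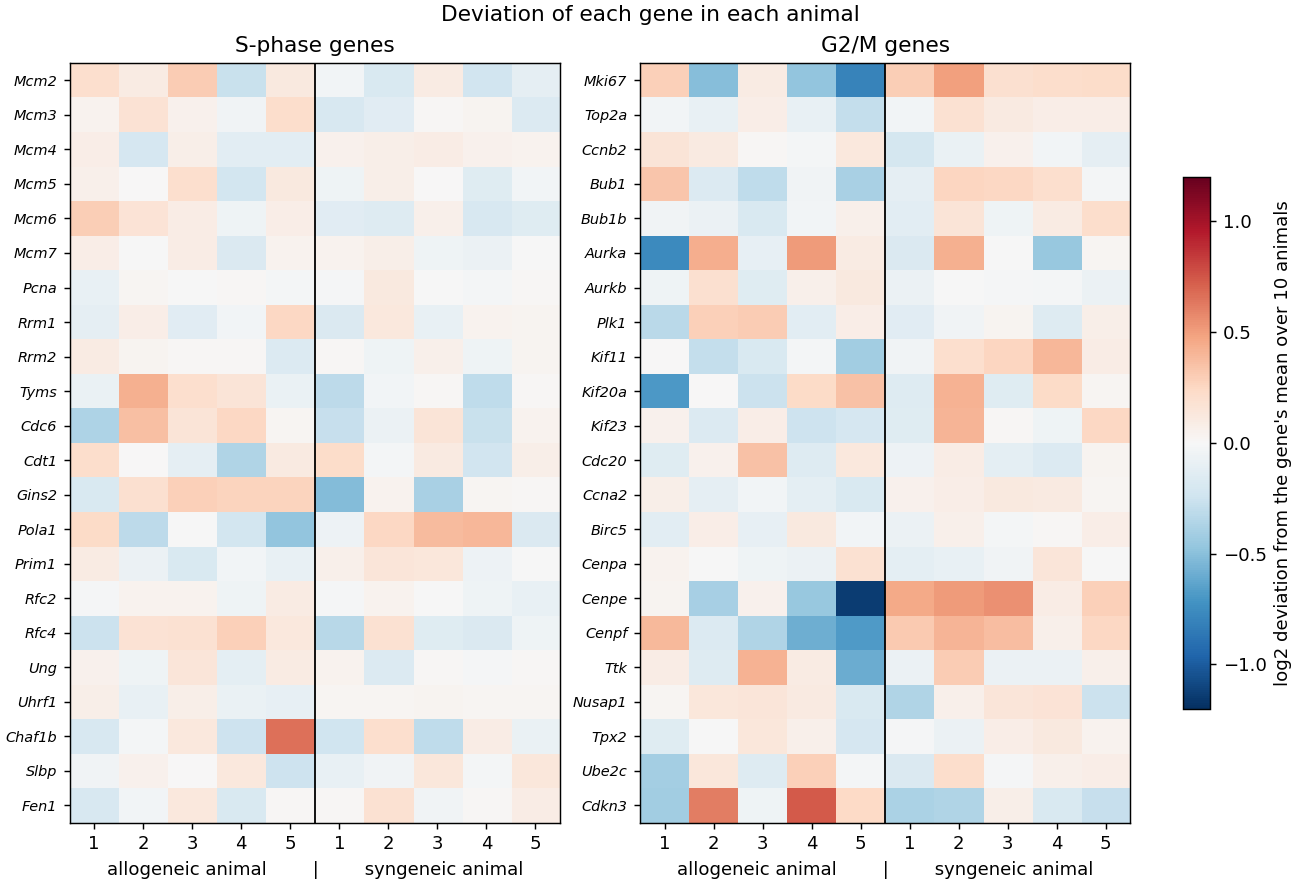
Log2 deviation of each S-phase (left) and G2/M (right) gene from its mean over the 10 animals (colour), one column per animal, allogeneic before the line and syngeneic after it. The darkest blue cells are Cenpe and Mki67 in allogeneic animal 5 and Aurka and Kif20a in allogeneic animal 1, while most S-phase genes stay pale in all animals.

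The members' differences held in part across probe sets. Of 57 further probe sets of the members, 46 were above background on every array. Of these, 32 had the same sign as the probe set in use and 14 the opposite sign. None of the 57 passed in a limma fit of all probe sets, and 5 had an unadjusted p under 0.05. With the mean over all probe sets of a gene, Kif11 differed by -0.13, Cenpe by -0.53, Cenpf by -0.35, Pola1 by -0.48, Mcm6 by 0.58, Chaf1b by 0.36, Cdt1 by -0.20, Mcm5 by 0.18, Rrm1 by 0.12 and Top2a by 0.072, and none of these passed. Some of these means take in probe sets at or near background. Such probe sets of Pola1 (-0.64), Chaf1b (0.60) and Cdt1 (-0.47) were above background on 0 arrays. Those of Mcm6 (1.40) and Top2a (0.44) were above it on 3 arrays, and that of Rrm1 (0.22) on 6.

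Other genes of the cycle, from lists fixed by function, gave no call either. By limma 0 of 32 G1/S regulators, 0 of 39 further replication genes and 0 of 54 further mitosis genes passed, and at an unadjusted p under 0.05 there were 1, 1 and 2 higher and 1, 4 and 3 lower. Median differences were -0.063, -0.089 and -0.083, and negative differences numbered 24 of 32, 25 of 39 and 38 of 54, where 48.8% of all genes were negative. Groups did not overlap for 2 of 32 G1/S regulators, 4 of 39 further replication genes and 1 of 54 further mitosis genes, beside 4.83% of all genes. Among the G1/S regulators, Ccnd1, a D-type cyclin, had 8.03, 8.46, 8.95, 8.26 and 8.59 in allogeneic animals, against 7.55, 7.58, 7.73, 7.99 and 7.64 in syngeneic animals. Its groups did not overlap, and the difference was 0.76 (SE 0.18, limma adjusted p = 0.0924). It passed without allogeneic animal 1 (0.86, adjusted p = 0.0282), with the lower 50% of genes left out (adjusted p = 0.0351) and with array weights (adjusted p = 0.0233). Ccnd1 did not pass in most of the 21 alternatives, nor with any other single animal left out. More genes passed in general in such settings, with 269 of 9096 without the lower 50%, against 106 of 18193 in the main fit. With the mean over its probe sets the Ccnd1 difference was 0.30 (adjusted p = 0.436). Cdk6, a kinase that D-type cyclins activate, differed by -0.56 (SE 0.17, adjusted p = 0.161), with allogeneic animal 1 at 12.21 and the other 4 at 11.35 to 11.63, against 12.06 to 12.52 in syngeneic animals. Without that animal it passed (-0.70, adjusted p = 0.0286), and with any other single animal left out it did not. Cdk2, the partner of cyclins E and A, differed by -0.23 (SE 0.11), with 10.66 to 10.92 in allogeneic and 10.82 to 11.25 in syngeneic animals. With the mean over its probe sets it was -0.025 (adjusted p = 0.976).

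Cdc7, the kinase that fires replication origins, and Dbf4, its activating subunit, both had groups without overlap. Cdc7 stood at 11.37, 11.25, 10.93, 11.50 and 10.97 in allogeneic animals, against 11.69, 11.75, 11.75, 11.58 and 11.70 in syngeneic animals, a difference of -0.49 (SE 0.13, limma adjusted p = 0.132). Dbf4 differed by -0.28 (SE 0.094, adjusted p = 0.192; -0.43 with the mean over probe sets), with 11.95 to 12.14 in allogeneic and 12.22 to 12.45 in syngeneic animals. Pold2, a subunit of polymerase delta, differed by 0.30 (SE 0.10, adjusted p = 0.2002), again without overlap, with 10.59 to 10.83 in allogeneic and 10.28 to 10.56 in syngeneic animals. Among mitosis genes, Sgo2a, a shugoshin that protects centromeric cohesion, had 10.32 to 10.79 in allogeneic and 10.96 to 11.18 in syngeneic animals (-0.45, SE 0.12, adjusted p = 0.131). Cdca5 (sororin) had 11.24 to 11.63 in allogeneic and 11.07 to 11.30 in syngeneic animals, a difference of 0.29 (SE 0.11). Ckap5, a microtubule polymerase, had 9.54 to 10.08 in allogeneic and 9.83 to 10.31 in syngeneic animals, a difference of -0.33 (SE 0.14). The cell cycle inhibitors Cdkn1a, Cdkn1b, Cdkn2c and Cdkn2d differed by -0.046, 0.11, -0.034 and 0.074. Foxm1 and Mybl2, whose products drive G2/M genes, differed by -0.081 and -0.013, and none of these 6 passed.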

How the data were processed

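Expression was measured in 10 sorted leukaemia samples, 1 array per animal. Per the labels' protocols, total RNA was extracted with Trizol and biotinylated cDNA was made with NuGEN kits. The deposited table holds 1 linear intensity for each of 45101 probe sets and array. How the authors summarised or scaled these values is not stated in the labels or the file. Values ran from 0.74 to 22385 and the arrays had unequal quartiles, so log2 intensities were quantile normalized. Probe sets took their names from the platform annotation, updated by gene identifier to GRCm38.p6 for 34741 probe sets; 34945 had 1 symbol, 932 several and 9160 none, and 64 were controls. The probe set of highest mean represented each of 18193 genes, with no filter on low values. An array's background limit was percentile 95 of its 27 bacterial control probe sets. It was set with earlier results known, as were the members, lists, motifs and alternatives.

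Groups were compared with limma 3.58.1 (lmFit and eBayes; R 4.3.3), with Benjamini-Hochberg adjustment over all 18193 genes and a threshold of 0.05. The fit was tested on simulated data. Scores and medians have no test. The 6 genes of lowest p in each part, with Pcna, Mcm2, Mki67 and Top2a, were given by animal, as were the 3 of lowest p in each other list by value or range; other genes named outside this rule were chosen after their values were seen. Alternatives covered normalization, probe set choice, filters, an offset of 16, eBayes settings, array weights, a block on animal number and leaving out arrays.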

Additional observations from a re-analysis of the deposited data

Results flagged for a closer look

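For each of the 44 genes and both scores, each group of 5 was searched for 1 animal standing apart, 92 searches in all. They found 5, and chance gives about 1 in 20. Allogeneic animal 1 was low for Gins2, at 11.002 against 11.38 to 11.47 in the other allogeneic animals, and for Rfc4, at 11.37 against 11.76 to 11.91. Syngeneic animal 3 was high for Mcm6, at 12.45 against 12.19 to 12.25 in the others of its group. Syngeneic animal 2 was high for Pcna, at 13.62 against 13.48 to 13.51, and low for Ung, at 11.83 against 11.98 to 12.03. All 5 are S-phase genes, and neither score had an animal apart.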

How the results depend on the processing

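Alternatives were 21, and 0 S-phase genes passed in each. Signs of 23 of 44 genes held in all of them, 49 of 924 values turned and 6 passed; of 11 genes differing by 0.2 or more, 1 (Tyms) turned. The causes were not tested. Without quantile normalization the S-phase median was -0.019, Mcm7 -0.053, Rrm1 -0.027, Rfc2 -0.0049, Ung -0.011 and Cenpa -0.013. With arrays centred on their medians, the S-phase median was -0.053, the G2/M median -0.16, the S-phase score difference -0.036, Mcm5 -0.027, Mcm7 -0.088, Rrm1 -0.061, Rfc2 -0.039, Ung -0.045 and Cenpa -0.047. With the mean over probe sets, Mcm4 was 0.0041, Mcm7 -0.056, Rrm2 0.017, Tyms -0.51, Uhrf1 0.044, Top2a 0.072, Aurka -0.083, Cenpa -0.059, Nusap1 -0.063 and Tpx2 0.11. With array weights, Mcm7 was -0.028, Ung -0.0043, Birc5 0.021 and Ube2c 0.046. In that setting 3 G2/M genes passed (Mki67 -0.69, Cenpe -0.84 and Cenpf -0.63, limma adjusted p = 0.0432, 0.0359 and 0.0499). So did 3 genes of the other lists, beside 720 of all 18193 genes. Without allogeneic animals 1, 3 and 4, only allogeneic animals 2 and 5 were left. Cdt1 was then 0.030, Kif20a 0.10, Birc5 0.0073 and Ube2c 0.022. In that setting 2 G2/M genes (Mki67 and Cenpe) and 3 of the other lists passed, beside 658 of all 18193 genes. The other lists had 1 gene passing with the lower 50% of genes left out (Ccnd1) and 1 with trend and robust eBayes (Cdc7). Leaving out 1 animal at a time gave -0.011 to 0.056 for Mcm7, -0.25 to 0.0074 for Kif20a, -0.057 to 0.0044 for Birc5, -0.15 to 0.025 for Ube2c, -0.042 to 0.28 for Aurka, -0.12 to 0.026 for Cdt1, -0.038 to 0.059 for Rrm1, -0.030 to 0.036 for Rrm2, -0.018 to 0.21 for Chaf1b, -0.082 to 0.012 for Slbp and -0.17 to 0.079 for Ttk, with 0 to 1 G2/M genes (Cenpf, without allogeneic animal 1), 0 to 3 genes of the other lists and 55 to 636 of all genes passing. Over all genes, 106 passed, against 185 with all probe sets in 1 fit, 269 without the lower 50%, 195 without genes at background, 251 with 16 added, 307 with trend and robust eBayes, 720 with array weights and 658 without allogeneic animals 1, 3 and 4. With animal number as a replicate block 14 genes passed, and 0 members. Same-numbered animals correlated at 0.26, 0.35, -0.053, -0.21 and -0.20 over 10455 genes, and only animals 1 and 2 correlated best with their own number. The labels do not say whether animal numbers pair the groups, and these few correlations cannot decide it.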

Other observations

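Beyond the 44 members, some other cell cycle genes also had allogeneic animals 2 to 5 below every syngeneic animal while allogeneic animal 1 was not. This was noticed after the values were seen. It held for 1 of 32 G1/S regulators (Cdk6), 2 of 39 further replication genes (Clspn and Rfc1) and 6 of 54 further mitosis genes (Zwilch, Smc2, Smc4, Ncapg, Anapc4 and Cdc16), beside 5.53% of genes above background on every array. The G1/S and replication lists were thus below that share and the mitosis list above it, which was not tested. Smc2, which codes for a condensin subunit, stood at 12.54 in allogeneic animal 1 and 11.63 to 12.12 in the other 4, against 12.31 to 12.49 in syngeneic animals. Smc4 stood at 12.42 in allogeneic animal 1 and 11.83 to 11.95 in the other 4, against 12.20 to 12.34 in syngeneic animals. Ncapg, also a condensin gene, stood at 12.52 in allogeneic animal 1 and 11.89 to 12.11 in the other 4, against 12.34 to 12.50 in syngeneic animals. The condensin genes Ncaph and Ncapd2 did not show the picture. Ncaph had a difference of 0.042, and Ncapd2 of allogeneic animals 3 and 5 (11.77 and 11.69) lay inside the 11.56 to 11.93 of syngeneic animals. Clspn, which codes for the fork checkpoint adaptor claspin, stood at 11.71 in allogeneic animal 1 and 10.98 to 11.28 in the other 4, against 11.53 to 11.68 in syngeneic animals. The mirror picture, with animals 2 to 5 above all syngeneic animals and animal 1 not, held for 0 of 32 G1/S regulators. Of further replication genes it held for 3 of 39 (Orc5, Cdc45 and Rpa2). Of further mitosis genes it held for 3 of 54 (Cdca5, Pttg1 and Melk). The share over genes above background on every array was 5.29%.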
